A study of Homo sapiens with 4 samples.

Results

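The genes that carry a cell from G1 into S phase and copy its DNA were followed in U87 cells, a human glioblastoma line in long use, after transfection of a synthetic piR-598 mimic or of NC oligo. They were taken as a fixed list of 32 genes, out of 20045 genes that the platform annotation names with a probe of their own. All 32 were on the bead array, with 50 probes between them. NC oligo was a commercial negative control sold for microRNA inhibitors (miScript Inhibitor Negative Control). The labels do not say whether its chemistry matches that of the mimic, so a difference between the oligos other than sequence cannot be told apart from the mimic's own effect. Both groups were kept in serum-containing medium, were transfected with the lipid reagent RNAiMax at 25 nM and were sampled at 24 h. Each group held 2 arrays, which the submitters call biological duplicates, and the labels name no untransfected cells. The comparison asks whether the mimic alters transcript levels at that time.

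Before S phase, the helicase ring of MCM2 to MCM7 is loaded onto replication origins by CDC6 and CDT1. Cyclin E with its kinase and the E2F transcription factors then drive entry into S phase, where the ring joins CDC45 and the GINS proteins to unwind DNA, and primase, polymerases, the PCNA clamp and FEN1 copy the strands. Most of these genes are known E2F targets that peak around the G1/S border, so their transcripts are common measures of how many cells are dividing.

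The RefSeq promoter windows (GRCh38.p14, from 250 bases before to 50 after a gene's first base) show what the genes share in sequence. A window was found for 28 of the 32. An E2F site was searched on both strands as exact TTTCCCGC, TTTGGCGC, TTTGCCGC or TTTCGCGC, of which neighbouring matches may overlap. At least 1 match was held by 17 of the 28 member windows, or 60.7%, against 3.33% of 27303 gene windows, taking the first listed window of each gene. CCAAT, the letters bound by the factor NF-Y, was in 16 of the 28 (57.1%), against 35.7% of all windows. TTTGAA, the letters of the CHR element known from mitotic genes, was in 1 of the 28, that of RRM1, against 15.4% of all windows. A match is a stretch of letters only, and binding was not measured.

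To show this sequence feature, the 160 bases before the first base of 6 members follow, 5′ to 3′ on the strand of the gene, with E2F matches in capitals. E2F1 is the regulator itself, and the other 5 stand for the helicase, primase-polymerase, clamp, nucleotide and flap-cutting steps described further on. FEN1 had no match in its window and is shown as the contrast.
E2F1 (chr20:33686386-33686545, minus strand): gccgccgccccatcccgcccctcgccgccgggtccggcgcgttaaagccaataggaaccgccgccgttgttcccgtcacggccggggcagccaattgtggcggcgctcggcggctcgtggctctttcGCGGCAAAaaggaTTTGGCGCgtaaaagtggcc
MCM6 (chr2:135876444-135876603, minus strand): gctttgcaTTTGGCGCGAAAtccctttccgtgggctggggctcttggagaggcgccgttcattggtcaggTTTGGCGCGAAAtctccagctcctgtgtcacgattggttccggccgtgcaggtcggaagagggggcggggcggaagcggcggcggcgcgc
POLA1 (chrX:24693758-24693917, plus strand): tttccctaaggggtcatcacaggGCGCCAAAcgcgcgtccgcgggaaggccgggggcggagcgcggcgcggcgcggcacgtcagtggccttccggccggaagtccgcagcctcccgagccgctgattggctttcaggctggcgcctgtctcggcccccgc
PCNA (chr20:5126623-5126782, minus strand): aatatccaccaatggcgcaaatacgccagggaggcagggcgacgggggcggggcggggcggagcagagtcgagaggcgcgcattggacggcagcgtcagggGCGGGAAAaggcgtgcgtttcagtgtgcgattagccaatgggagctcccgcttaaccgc
TYMS (chr18:657493-657652, plus strand): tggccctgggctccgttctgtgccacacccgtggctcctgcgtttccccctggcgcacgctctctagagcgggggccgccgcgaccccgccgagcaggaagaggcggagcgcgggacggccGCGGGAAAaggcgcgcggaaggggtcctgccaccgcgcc
FEN1 (chr11:61792751-61792910, plus strand): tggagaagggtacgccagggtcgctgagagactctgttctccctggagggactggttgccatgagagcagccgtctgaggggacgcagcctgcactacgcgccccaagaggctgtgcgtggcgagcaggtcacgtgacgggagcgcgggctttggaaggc
The stretch of MCM6 holds 4 overlapping matches in 2 places, that of E2F1 holds 2, and those of POLA1, PCNA and TYMS hold 1 each.

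Most of the replication genes were detected in these cells. A probe counts as detected on an array when its deposited detection p is under 0.05, and 30 of the 32 genes had a probe detected on all 4 arrays. Of the 50 probes, 41 were detected on all 4 arrays, 3 on some and 6 on 0 arrays. The detected probe with the brightest mean signal stands for each gene. On these 30 probes the deposited signals ran from 113 for CDC6 to 3800.3 for MCM3. Mean signals over 1000 were reached by 12 of the 30 genes, and 3 (CDC6, GINS4 and E2F1) had means under 150. Probes differ in how brightly they report a transcript, so signals of different probes do not rank the genes.

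The deposited signals were not scaled between arrays. Their means were 305.8 and 300.0 on the NC oligo arrays and 273.0 and 284.8 on the mimic arrays, so unscaled signals run lower with the mimic. Group differences are therefore given after normalization, as log2 fold change, mimic minus NC oligo, with its standard error (SE). A detected probe was found on every array for all 8 glioblastoma markers looked at (VIM, CD44, FN1, TNC, SPARC, S100A6, NES and EGFR). The brightest FN1 probe gave only 120 to 140, and NES 180 to 209. The astrocyte markers GFAP, S100B, AQP4 and SLC1A2 were detected on 0 arrays. Among markers of other cell types, CD68, CSF1R and AIF1 (3 of 5 for microglia and macrophages) and SNAP25 and MAP2 (2 of 4 for neurons) were detected on all 4, PTPRC and RBFOX3 on 0, and none of the 3 endothelial or 3 epithelial markers on all 4. In a bulk sample, fewer dividing cells and less RNA per dividing cell cannot be told apart.

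**Figure D1:**
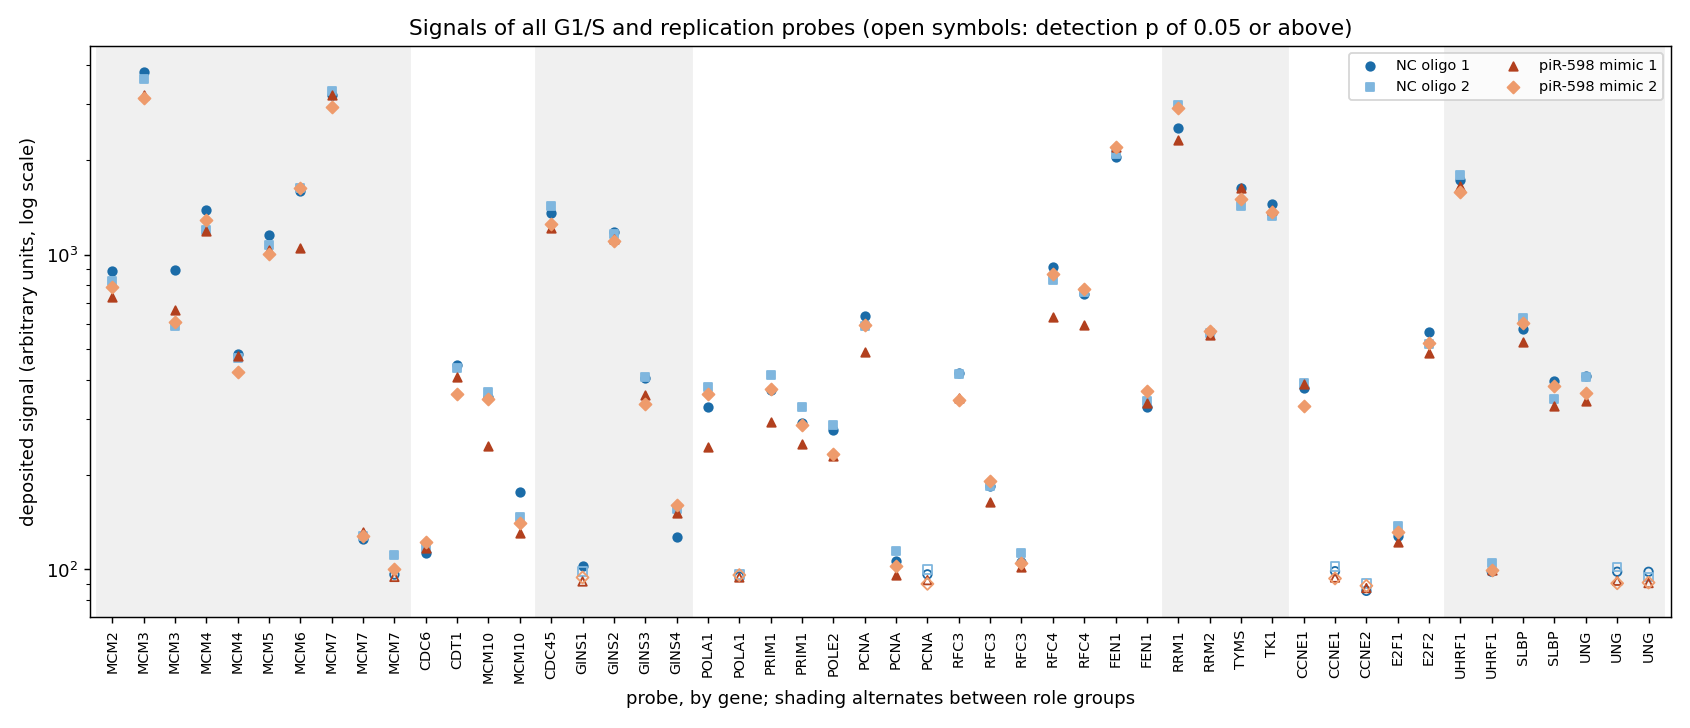
Deposited signal (arbitrary units, log scale) of the 50 probes of the 32 genes on each of the 4 arrays, 1 column per probe, with open symbols where the detection p was 0.05 or above. The 4 symbols of most probes lie close together, mimic array 1 sits low for MCM6, MCM10, POLA1 and RFC4, and the undetected probes lie between 85.5 and 102.

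No G1/S or replication gene passed the test. With limma over 20188 tested probes of the whole array and Benjamini-Hochberg adjustment, 0 of the 43 tested member probes had an adjusted p under 0.05, against 0% of all tested probes. The smallest adjusted p of a member was 0.895. Before adjustment, 2 of the 43 probes had a p under 0.05 (4.65%), against 5.46% of all tested probes. Those 2, CDC6 and GINS4, were higher with the mimic (background 2.62%), and 0 were lower (background 2.84%). With 1 array left out, the log2 fold change of CDC6 ran from 0.31 to 0.49 and that of GINS4 from 0.22 to 0.89. In these fits 1 group is a lone array, assumed to vary like the 2 of the other group. By gene, 17 of the 30 log2 fold changes were above 0 and 13 below, where 50.1% of all tested probes were above 0. The median log2 fold change of the 30 genes was 0.02, against 0.00067 over all tested probes, and the genes ran from -0.20 (POLE2) to 0.55 (GINS4).

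The mimic and NC oligo arrays did not overlap for 13 of the 30 genes (43.3%). Of those, 9 were higher and 4 lower with the mimic. Overlap is judged on normalized values here and below. Each gene is read by its brightest probe, and over the 43 tested member probes 16 did not overlap (37.2%, 11 higher and 5 lower). Over all tested probes 34.7% did not overlap, 17.1% higher and 17.6% lower. The 95% interval of the fold change lay within 1.5-fold in either direction for 25 of the 30 genes (83.3%). The share was 79.1% of the 43 member probes and 74.6% of all tested probes. The genes outside were CDC6, GINS4, MCM6, MCM10 and POLA1. The interval lay within 2-fold for 29 of the 30, with GINS4 the exception. The intervals of CDC6 and GINS4 lay above 0 before adjustment. The other genes had intervals that spanned 0, so their differences could not be told from 0 with 2 arrays a group.

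**Figure D2:**
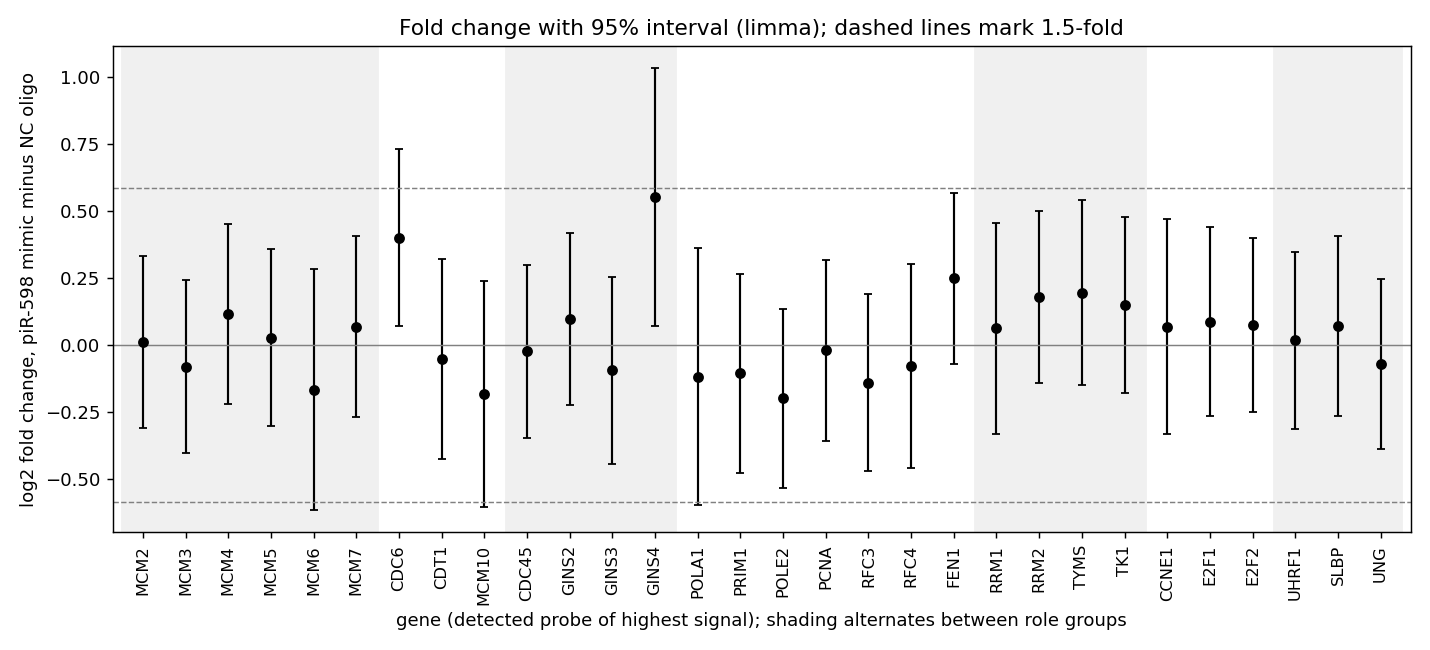
Log2 fold change (mimic minus NC oligo) of the 30 genes with a detected probe, with 95% intervals from limma, ordered by role; dashed lines mark 1.5-fold. Most intervals span 0 and stay inside the dashed lines; those of CDC6 (0.07 to 0.73) and GINS4 (0.07 to 1.03) lie above 0 before adjustment.

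The 6 subunits of the helicase ring had log2 fold changes from -0.17 to 0.12, with 4 above 0 and 2 below, and a median of 0.02. Relative to all tested probes, MCM2 turned to -0.043 with median scaling. In the authors' scaled signals MCM2 was at -0.059 and MCM5 at -0.020 relative to all tested probes. MCM2 had signals of 883 and 825 on the NC oligo arrays and 735 and 790.4 on the mimic arrays, and a log2 fold change of 0.01 ± 0.14 (SE, 2 arrays a group). After normalization its 4 arrays spanned only 0.08 on the log2 scale, and the groups overlapped. MCM3 had 3800.3 and 3616 with NC oligo and 3204 and 3151 with the mimic. Its normalized values were lower on both mimic arrays, with a log2 fold change of -0.08 ± 0.14 (SE). MCM4 gave 1386 and 1192 with NC oligo against 1191 and 1287 with the mimic, with 0.12 ± 0.15 (SE) as the log2 fold change, and its normalized groups did not overlap. MCM5 gave 1155 and 1068 against 1034 and 1005, with 0.03 ± 0.14 (SE) and overlapping groups. MCM7 gave 3202 and 3295 against 3202 and 2946, with 0.07 ± 0.15 (SE) and overlapping groups.

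Read by the brightest probes, MCM6 was the subunit whose arrays of one group differed most. Its signals were 1592 and 1620.4 on the NC oligo arrays, 1050.0 on mimic array 1 and 1625 on mimic array 2. Mimic array 1 alone was low, while mimic array 2 was the highest of the 4 after normalization. The log2 fold change was -0.17 ± 0.20 (SE), and it was 0.13 without mimic replicate 1 and -0.46 without mimic replicate 2. Adjusted p-values from limma were 0.972 or above for the 6 subunits.

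Among the genes that load the helicase and start it, CDC6 and MCM10 lay on opposite sides of 0. CDC6, the ATPase that brings the ring to origins, had signals of 113 and 117 with NC oligo and 117 and 122 with the mimic. These lie close to the level of undetected probes, and after normalization they were 5.07 and 5.24 against 5.57 and 5.54. The groups did not overlap, and the log2 fold change was 0.40 ± 0.15 (SE, limma adjusted p = 0.895). It was 0.14 without background correction. CDT1, the partner of CDC6 in loading, had 446 and 437 against 407 and 361, at a log2 fold change of -0.05 ± 0.16 (SE), with overlapping groups. MCM10, which helps to start the loaded helicase, had 352 and 367 against 246 and 348. Mimic array 1 was again the low one on this probe, and the log2 fold change of -0.18 ± 0.19 (SE) became 0.07 without it. The second MCM10 probe had normalized values of 6.53 and 6.05 against 5.97 and 6.03. On that probe NC oligo array 1 stood apart, the groups did not overlap, and the log2 fold change was -0.29 ± 0.18 (SE).

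The partners that complete the working helicase had 4 of 5 genes measured, 2 above 0 and 2 below. GINS4 had the log2 fold change furthest from 0 of the 30 genes, 0.55 ± 0.21 (SE, limma adjusted p = 0.895). Its signals were 127 and 155 on the NC oligo arrays and 151 and 161 on the mimic arrays. NC oligo array 1 stood apart: after normalization the values were 5.54 and 6.21 with NC oligo and 6.43 on each mimic array. Leaving out NC oligo replicate 1 gave a log2 fold change of 0.22, leaving out NC oligo replicate 2 gave 0.89, and without background correction it was 0.26. GINS2 had 1183 and 1163 against 1123 and 1104, with 0.10 ± 0.14 (SE), and its normalized groups did not overlap. GINS3 had 406 and 407 against 358 and 335, with -0.09 ± 0.15 (SE), and its groups overlapped.

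CDC45, the remaining helicase partner measured, had signals of 1358 and 1425 with NC oligo and 1209.9 and 1251 with the mimic. Its log2 fold change was -0.02 ± 0.14 (SE), with overlapping groups. GINS1 was near the detection limit. Its probe gave 103 and 98.4 with NC oligo and 91.6 and 94.3 with the mimic, and only NC oligo array 1 had a detection p under 0.05 (0.0416), so it was not tested and no fold is given.

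Of the 7 genes that prime and copy the strands, 6 had log2 fold changes below 0, from -0.20 to -0.02, and FEN1 was above. These 6 values kept their sign under each other scaling and background setting tried, but 4 of the 6 turned sign when 1 array was left out, and none passed the test. FEN1, the nuclease that trims the flaps of Okazaki fragments, had signals of 2040.4 and 2083 with NC oligo and 2196 and 2200.1 with the mimic. Both mimic arrays were above both NC oligo arrays even before scaling. Its log2 fold change was 0.25 ± 0.14 (SE, limma adjusted p = 0.913), a 1.19-fold difference with a 95% interval from 0.953 to 1.48. POLE2, a subunit of the leading-strand polymerase epsilon, had 277 and 287 against 229.7 and 232. Its normalized groups did not overlap, and the log2 fold change was -0.20 ± 0.15 (SE). RFC3, a subunit of the loader that opens the PCNA clamp, had 422 and 416 against 349 and 345, a log2 fold change of -0.14 ± 0.15 (SE), again without overlap.

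POLA1, the catalytic subunit of the polymerase that works with primase, had signals of 328 and 379 with NC oligo and 245 and 361 with the mimic. Mimic array 1 was the low one, and the log2 fold change of -0.12 ± 0.21 (SE) was 0.17 without mimic replicate 1 and -0.41 without mimic replicate 2. The primase subunit PRIM1 had 373 and 415 against 295 and 373 with a log2 fold change of -0.10 ± 0.16 (SE). PCNA, the sliding clamp, had 636 and 594 against 492 and 599, with -0.02 ± 0.15 (SE). RFC4, another clamp loader subunit, had 911 and 831 against 635 and 866, with -0.08 ± 0.17 (SE). For each of these 4 genes mimic array 1 was the lowest of the 4 after normalization and the groups overlapped.

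The 4 genes of nucleotide supply all had log2 fold changes above 0 with all 4 arrays, from 0.06 to 0.20 with a median of 0.16. RRM1 was at -0.094 without NC oligo replicate 1 and at -0.085 without mimic replicate 2. Adjusted p-values from limma were 0.939 or above, so none passed the test. TYMS, which makes thymidylate, had signals of 1625 and 1423 with NC oligo and 1629 and 1500.1 with the mimic. The lower mimic array was above the higher NC oligo array after normalization, and the log2 fold change was 0.20 ± 0.15 (SE). RRM2, the ribonucleotide reductase subunit known to be made in S phase, had 566 and 565 against 556 and 570.0, and 0.18 ± 0.14 (SE). TK1, the thymidine salvage kinase of dividing cells, had 1445 and 1321 against 1382 and 1367, and 0.15 ± 0.14 (SE). For TYMS, RRM2 and TK1 the groups did not overlap. RRM1, the large reductase subunit, had 2528 and 2992 against 2305 and 2913, so array 2 was the brighter one in each group. Its log2 fold change of 0.06 ± 0.17 (SE) was smaller than the difference of about 0.3 between the arrays of either group (0.31 for NC oligo, 0.30 for the mimic).

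The 3 measured regulators of S phase entry had log2 fold changes from 0.07 to 0.09. E2F1 had signals of 128 and 137 with NC oligo and 122 and 132 with the mimic, close to background, and a log2 fold change of 0.09 ± 0.16 (SE). E2F2 had 569 and 519 against 488 and 525, with 0.07 ± 0.14 (SE). CCNE1, cyclin E1, had 378 and 389.6 against 388 and 331, with 0.07 ± 0.18 (SE). Mimic array 2 was its lowest array and mimic array 1 its highest, which left the groups overlapping. CCNE2, cyclin E2, was detected on 0 of 4 arrays. Its probe gave 85.5 and 90.4 with NC oligo and 87.3 and 88.8 with the mimic, at detection p from 0.665 to 0.975, so no fold is given.

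The 3 other S-phase genes had log2 fold changes from -0.07 to 0.07. UHRF1, which guides DNA methylation to new strands, had 1729.8 and 1784 with NC oligo and 1652 and 1579.5 with the mimic, and 0.02 ± 0.14 (SE), with overlap (-0.017 relative to all tested probes on the authors' scaled signals). SLBP, which binds the end of histone mRNA, had 579.9 and 631 against 528 and 604, and 0.07 ± 0.15 (SE), with overlap. UNG, which removes uracil from DNA, had 409.9 and 409 against 342 and 364, and -0.07 ± 0.14 (SE). Its normalized groups did not overlap although all 4 arrays lay within 0.10 on the log2 scale.

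Several members could be read by more than 1 probe, which gives a check within the same arrays. Of the 32 genes 18 had 1 probe, 10 had 2 and 4 had 3, and for 11 genes more than 1 probe was tested. The fold changes of a gene's probes had the same sign in 8 of the 11, against 50.9% of the 2978 genes on the array with more than 1 tested probe. Differences between the 2 arrays of a group also had the same sign in 6 of the 11 for NC oligo and 7 for the mimic. The median difference between the probes of a gene was 0.09 on the log2 scale, against 0.17 for those 2978 genes. Probes of a gene share the arrays and are not replicates.

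Among the 11 genes, every tested probe lay above 0 for FEN1, MCM4, SLBP and UHRF1. The second FEN1 probe had signals of 329 and 343 with NC oligo and 339 and 369.8 with the mimic, and a log2 fold change of 0.30 ± 0.14 (SE, limma adjusted p = 0.895), beside 0.25 for the first. After normalization the groups did not overlap for either FEN1 probe, while the deposited signals of the second probe overlapped. The smallest difference between probes was that of MCM4, at 0.12 and 0.09, and PRIM1 was at -0.10 and -0.07. MCM10 was at -0.18 and -0.29, SLBP at 0.07 and 0.12 and MCM3 at -0.08 and -0.02. The MCM3 probes differed in spread, since the second one had 893 on NC oligo array 1 and 592 on NC oligo array 2.

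Other genes had probes that lay further apart or on opposite sides of 0. The brightest MCM7 probe was at 0.07 ± 0.15 (SE) in log2 fold change. The second MCM7 probe, with signals of 125 and 128 against 132 and 128, had 0.33 ± 0.16 (SE). The third was detected on 1 of 2 arrays in each group, with 96.3 and 111 against 94.7 and 100.2, and had -0.08 ± 0.21 (SE). The 3 RFC3 probes had log2 fold changes of -0.14, 0.11 and 0.0030, from the brightest to the dimmest, and those of RFC4 had -0.08 and 0.02. PCNA had -0.02 and, for a probe at 106 and 115 against 96.3 and 102, -0.28 ± 0.17 (SE). UHRF1 had 0.02 and, for a probe with 98.3 and 105 against 99.7 and 99.9 that was detected on 3 of 4 arrays, 0.15 ± 0.16 (SE). The 6 probes detected on 0 arrays belong to POLA1, PCNA, CCNE1, CCNE2 and UNG, with signals from 85.5 to 102.

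**Figure D3:**
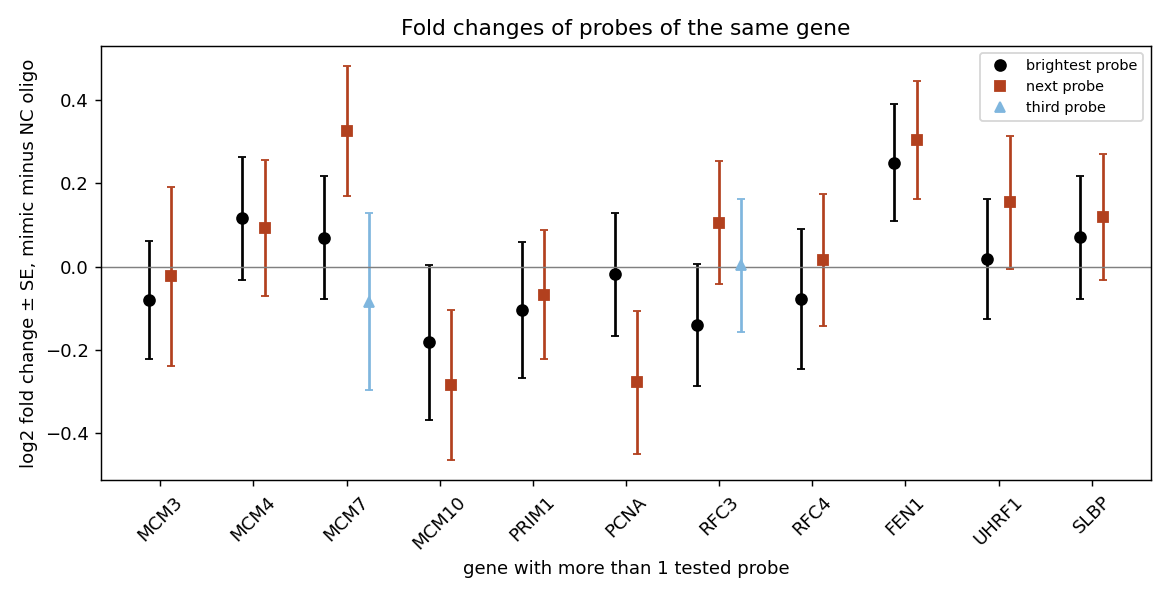
Log2 fold change ± SE of each tested probe for the 11 genes with more than 1, from the brightest probe to the dimmest. The FEN1 probes lie together at 0.25 and 0.30, while the MCM7 probes run from -0.08 to 0.33.

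The spread between arrays of the same group set the scale for these values. Among the 30 genes the NC oligo arrays differed by a median of 0.10 on the log2 scale and the mimic arrays by 0.14, in size. Over the 43 tested member probes the medians were 0.11 and 0.14, and over all tested probes 0.14 and 0.18. The fold change was larger than the gene's own array differences in both groups for 7 of the 30 genes (23.3%). The share was 20.9% of the 43 member probes and 23.3% of all tested probes. A difference above 0.25 in size between the mimic arrays was found for 9 of the 30 genes, or 30% against 36.5% of all tested probes. In 6 of them mimic array 1 was the lower one (MCM6, MCM10, POLA1, PRIM1, RFC4 and RRM1), and in 3 it was the higher one (CDT1, GINS3 and CCNE1). The NC oligo arrays differed by more than 0.25 for 4 genes (13.3%), GINS4, POLA1, RRM1 and E2F1, each lower on NC oligo array 1. The genes are read by their brightest probes. Over the 43 tested member probes 11 differed by more than 0.25 (25.6%, against 25.3% of all tested probes). Of those 11, 9 were lower on NC oligo array 1 and 2 were higher.

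For genes of the first set a second probe was available for MCM10, PRIM1 and RFC4. RFC4 repeated the difference between the mimic arrays, at 0.37 and 0.30 with its 2 probes, and PRIM1 had 0.28 and 0.11. MCM10 had 0.50 with one probe and 0.06 with the other. At the other end, MCM2 and UNG spanned 0.08 and 0.10 over the 4 arrays. The median span was 0.26 among the 30 genes, 0.30 over the 43 tested member probes and 0.34 over all tested probes.

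**Figure D4:**
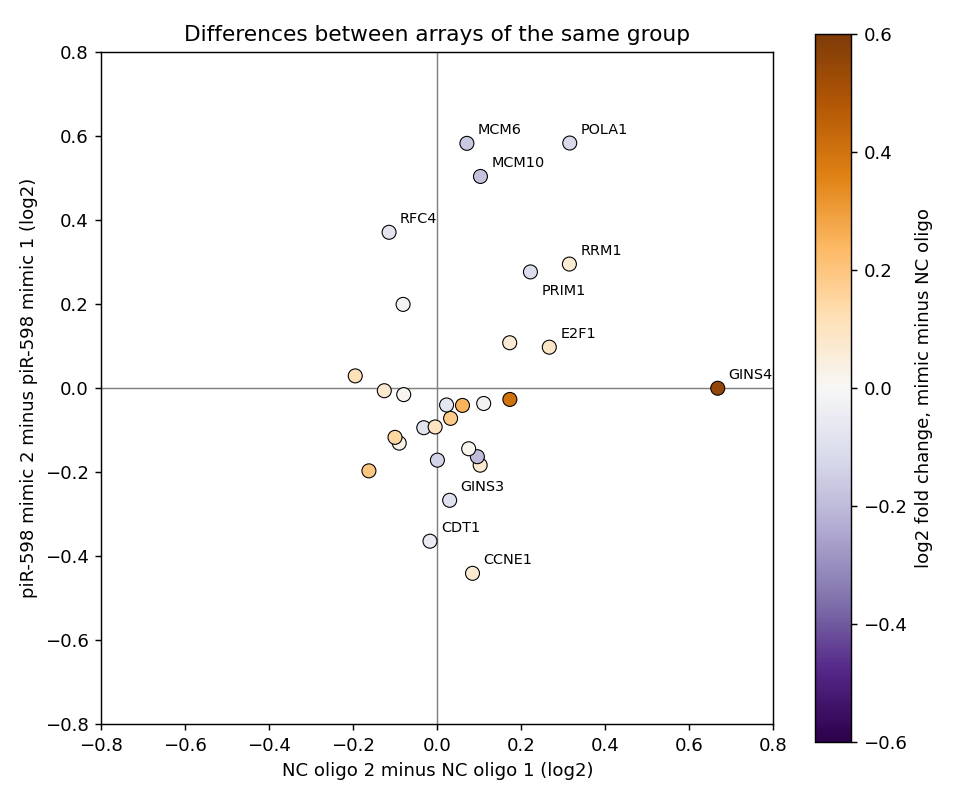
For the 30 genes, the log2 difference between the NC oligo arrays (x axis) against that between the mimic arrays (y axis), coloured by log2 fold change, with names where either exceeds 0.25. GINS4 stands alone at the right (0.67), and MCM6, POLA1 and MCM10 at the top (0.58, 0.58 and 0.50).

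No other gene looked at in the pathway passed the test. Of 71 further genes of origin recognition, replication forks and the G1/S switch, 67 had a tested probe and 0 passed the test. An unadjusted p under 0.05 was found for 3 of the 67, where 5.46% of all tested probes had one. The log2 fold changes of the 67 were above 0 in 37 and below in 30, with a median of 0.02. The 3 with the smallest unadjusted p did not pass either (limma adjusted p = 0.895 for each). DTYMK, the thymidylate kinase, had signals of 124 and 122 with NC oligo and 103 and 108 with the mimic, and a log2 fold change of -0.41 ± 0.14 (SE). POLD1, the catalytic subunit of polymerase delta, had 291 and 240 against 282 and 297, and 0.40 ± 0.16 (SE). Its deposited signals overlapped. The histone chaperone ASF1A had 302 and 290 against 180 and 254, and -0.48 ± 0.20 (SE). Mimic array 1 was its low one, and the mimic arrays differed by 0.60, more than the fold change in size. Of 20 genes of G2 and mitosis used for comparison, 16 were above 0 (80%, against 50.1% of all tested probes) and 4 below, with a median of 0.05. That median was below the median size of the differences between arrays of a group, 0.20 for NC oligo and 0.21 for the mimic. The fold change was larger than both array differences for 1 of the 20 (5%, against 23.3% of all tested probes). The groups of arrays did not overlap for 3 of the 20 (15%, against 34.7%). None of the 20 passed the test, and 1 had an unadjusted p under 0.05 (5%, against 5.46% of all tested probes).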

How the data were processed

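The authors deposited a table of average bead signal intensity per probe with a detection p-value beside each, per the file headers, for 4 arrays. GenomeStudio 2011.1 was used, per the submitters' processing notes. A second deposited table of intensity values equals the first times a constant per array (0.951 to 1.07), which sets each array mean to 291, and it was used as an alternative. A genome build is not given in the sources used here. Array position and date were not used.

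Signals were background-corrected and quantile normalized with neqc (offset 16, limma 3.58.1, R 4.3.3). Of 47318 probes, 20188 reached a detection p below 0.05 on 2 or more arrays and were tested with lmFit and eBayes, two-sided, with Benjamini-Hochberg adjustment over all of them. The prior carried 6.74 degrees of freedom. Steps were tested on simulated data. The submitters call the arrays biological duplicates, but the labels do not say that they came from separate cultures. A p-value therefore reflects the spread among these arrays alone, which may be technical, and their number limits the precision.

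Probes were named from the platform annotation (30112 with 1 symbol, 8 with several, 17198 with none), and all 50 member probes matched RefSeq symbols by gene identifier. Promoter sequences are from RefSeq. Every member is named; the further genes named are the 3 of smallest unadjusted p. Members and lists were chosen with earlier results of these data known. Alternatives were background correction, offset, scaling, detection filter, the second table, an intensity trend, a replicate block, probe choice and leaving out each array.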

Additional observations from a re-analysis of the deposited data

How the results depend on the processing

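No member probe passed the test under any of the 13 alternatives (limma, smallest adjusted p 0.369, without piR-598 mimic replicate 2). Over all tested probes the count past the test was 0 with all 4 arrays and ran from 0 to 3 when 1 array was left out. Member probes with an unadjusted p under 0.05 numbered 2 of 43, against 1102 of all 20188 tested probes. They numbered 4 of 43 with an offset of 50 (1081 of 20188) and 4 of 50 with no detection filter (2567 of 47318). On the authors' scaled signals they numbered 4 of 43 (1301 of 20188). Under the other alternatives that keep all 4 arrays they numbered 2 or 3. Without NC oligo replicate 1, the log2 fold changes of CDC6 and GINS4 were smaller, at 0.31 and 0.22. The median log2 fold change of the 30 genes was -0.081 under median scaling, where that of all tested probes was -0.085, and ran from -0.017 to 0.071 when 1 array was left out. It was -0.0032 on the authors' scaled signals (all tested probes 0.015) and 0.046 with the mean over each gene's detected probes.

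The sign of 10 of the 30 genes held under the 13 alternatives that keep the same probe: MCM3, CDC6, GINS4, POLE2, RFC3, FEN1, RRM2, TYMS, TK1 and UNG. Of these, RFC3 has other tested probes above 0. Signs turned under median scaling for MCM2 (-0.13), MCM4 (-0.0082), MCM5 (-0.084), MCM7 (-0.037), GINS2 (-0.031), RRM1 (-0.043), CCNE1 (-0.062), E2F2 (-0.063), UHRF1 (-0.079) and SLBP (-0.059). Median scaling shifts all tested probes, and relative to their median, a comparison added after seeing the data, MCM2 (-0.043) was the 1 gene that turned. They turned on the authors' scaled signals for MCM2 (-0.044), MCM5 (-0.0048) and UHRF1 (-0.0016), and with cyclic loess for MCM2 (-0.0064). Leaving out 1 array turned the sign of 17 genes, with log2 fold changes from -0.027 to 0.053 for MCM2, -0.037 to 0.094 for MCM5, -0.46 to 0.13 for MCM6, -0.022 to 0.16 for MCM7, -0.43 to 0.070 for MCM10 and -0.23 to 0.13 for CDT1. The ranges were -0.078 to 0.032 for CDC45, -0.23 to 0.041 for GINS3, -0.41 to 0.17 for POLA1, -0.24 to 0.033 for PRIM1, -0.12 to 0.081 for PCNA and -0.26 to 0.11 for RFC4. They were -0.094 to 0.22 for RRM1, -0.15 to 0.29 for CCNE1, -0.045 to 0.22 for E2F1, -0.054 to 0.091 for UHRF1 and -0.016 to 0.16 for SLBP. The cause was not tested, and each of these fits has a lone array in 1 group, assumed to vary like the other group's 2.

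Array numbers are shared by the groups, but the labels do not say that they pair samples. Deviations of same-numbered arrays from their group means correlated at 0.15 across tested probes. With the replicate block 0 probes passed the test. An unadjusted p under 0.05 was found for 2 of 43 member probes, against 1438 of 20188 tested probes. Signals near background limit CDC6, GINS4 and E2F1.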
